A study of Mus musculus with 9 samples.

Results

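Mouse bone marrow cells transformed in culture and labelled Runx2ko were compared with cells labelled BM progenitor, across all genes with enough counts. The comparison was chosen by label alone and takes 6 of the 9 libraries of the study, 3 per group; the other 3, of transformed cells labelled Runx2wt, served for a test against Runx2ko and for a shared estimate of the spread. Counts, medians and fold changes are given for all 6 libraries and again without Runx2ko replicate 1, which stands apart from the other transformed libraries; "without replicate 1" always means that library. Counts with any other single library left out, or with another tool, filter or choice of libraries in the fit, keep replicate 1.

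All groups came from lineage-depleted marrow of Runx2fl/fl CreErt2tg/+ mice, which carry floxed Runx2 and a Cre recombinase that works only once tamoxifen is bound. The study set marrow progenitors beside cells that a KMT2A-MLLT1-eGFP retrovirus had transformed, and then removed Runx2. KMT2A-MLLT1, also called MLL-ENL, joins the DNA-binding part of a histone methyltransferase to a subunit of the transcription elongation machinery. Cells were replated every 7 days in methylcellulose with IL-3 and IL-6 at 10 ng/ml each and SCF at 50 ng/ml. RNA of the BM progenitor group was collected ahead of the first replating, and that of the transformed groups from suspension culture after the second; the Runx2ko group had received 4-hydroxytamoxifen (4-OHT) at 400 nM for 24 hours, and the Runx2wt group ethanol. The labels do not say if the fusion was present in the BM progenitor cells, which promoter drives the Cre or which Runx2 exon is floxed; they call the samples independent biological replicates. The text on RNA extraction mentions T-ALL cells, which no other label does. Transformation, time in culture, culture form and 4-OHT with active Cre all differ between the compared groups, so their parts in any difference cannot be told apart.

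KMT2A fusions keep active a set of genes that normal stem and progenitor cells switch off as they mature, with the Hoxa cluster and Meis1 as the best-known members. Marrow progenitors held in IL-3, IL-6 and SCF mature into granulocytes, macrophages and mast cells, whereas fusion-transformed cells go on replating at an immature myeloid stage. RUNX proteins bind DNA with the partner Cbfb and set the course of blood and bone lineages.

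Totals ran from 3118594 to 5348177 counts in the 6 libraries, with 14665 to 15634 genes counted. The transcripts were counted by QuantSeq, which reads a tag near the 3' end, so values are given as CPM, counts scaled to library size, and do not depend on length. Across 11196 genes the log2(CPM + 1) of Runx2ko replicate 1 correlated at 0.811 to 0.832 with the other 5 transformed libraries, which correlated at 0.941 to 0.964 among themselves, and BM progenitor libraries at 0.978 to 0.982 with each other. With the BM progenitor libraries Runx2ko replicate 1 correlated at 0.843 to 0.852, above its values with the transformed libraries, and Runx2ko replicates 2 and 3 at 0.837 to 0.878. Runx2ko replicate 1 was also the only one of the 3 Runx2ko libraries with almost no Xist, the RNA of the inactive X chromosome, at 0.323 CPM against 51 and 56.6 CPM. In BM progenitor Xist was at 51.3, 0.540 and 57.1 CPM, and in Runx2wt at 0, 0.554 and 21.4 CPM. Runx2wt replicates 1 and 2 thus had almost no Xist either, and both are among the 5 that correlated at 0.941 to 0.964. The Y-linked Ddx3y was at 168, 80.7 and 62.3 CPM in Runx2ko libraries, and 45.3, 100.1 and 58.6 CPM in BM progenitor. In each of these 2 compared groups 2 libraries therefore held both transcripts. Whether this makeup bears on any result below was not tested.

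The targeted gene is given first. Runx2 (ENSMUSG00000039153, GRCm38 chromosome 17, 44495987 to 44814797, minus strand) stood at 53.3, 46.7 and 58.8 CPM in BM progenitor and 21, 120.1 and 135 CPM in Runx2ko, so replicate 1 lay below every BM progenitor library and the other 2 Runx2ko libraries above them. The Runx2 log2 fold change was 0.80 (SE 0.51, edgeR adjusted p = 0.309) and 1.26 without replicate 1 (SE 0.19, adjusted p = 0.000815), which passed only without replicate 1. Runx1 was at 105, 120.3 and 146 CPM in BM progenitor and 175, 107 and 133 CPM in Runx2ko, and Cbfb at 249, 274 and 306 CPM in BM progenitor and 287, 236 and 229 CPM in Runx2ko; neither passed in either set of libraries, with changes of 0.16 log2 units and -0.05 without replicate 1 (edgeR adjusted p = 0.686 and 0.879) for Runx1 and -0.14 log2 units and -0.25 without replicate 1 (edgeR adjusted p = 0.54 and 0.241) for Cbfb. The floxed exon is not named and a tag at the 3' end need not be lost with it, so these values check neither the deletion nor the labels; Runx2ko here means the libraries so labelled.

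Many genes differed between the groups. With all 6 libraries 1924 of 11196 tested genes passed (edgeR quasi-likelihood F-test, Benjamini-Hochberg adjusted p under 0.05), 1125 higher and 799 lower in Runx2ko, which is 17.2% of those tested, 10.0% higher and 7.14% lower. Without replicate 1, 3311 of 11636 passed, 1846 higher and 1465 lower, which is 28.5%, 15.9% and 12.6%. Every count of list members below is to be read beside these shares, and a list near them does not stand out from all genes. 1797 genes passed in both, 1046 up and 751 down, and none of them changed direction. The median log2 fold change over all tested genes was 0.07 and -0.00 without replicate 1. Leaving out 1 BM progenitor library lowered the number that passed to 498, 435 or 405 without replicate 1, 2 or 3, and calls that a single left-out library ended are named where they occur. Counts of at most 2 members of a list are not followed in this way: they moved by no more than 2 when any other single library was left out, apart from the ER chaperone genes. The plot of CPM by library shows 12 genes that recur below, and the plot of gene lists by library shows where replicate 1 went with the other 2 Runx2ko libraries and where it did not.

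**Figure D1:**
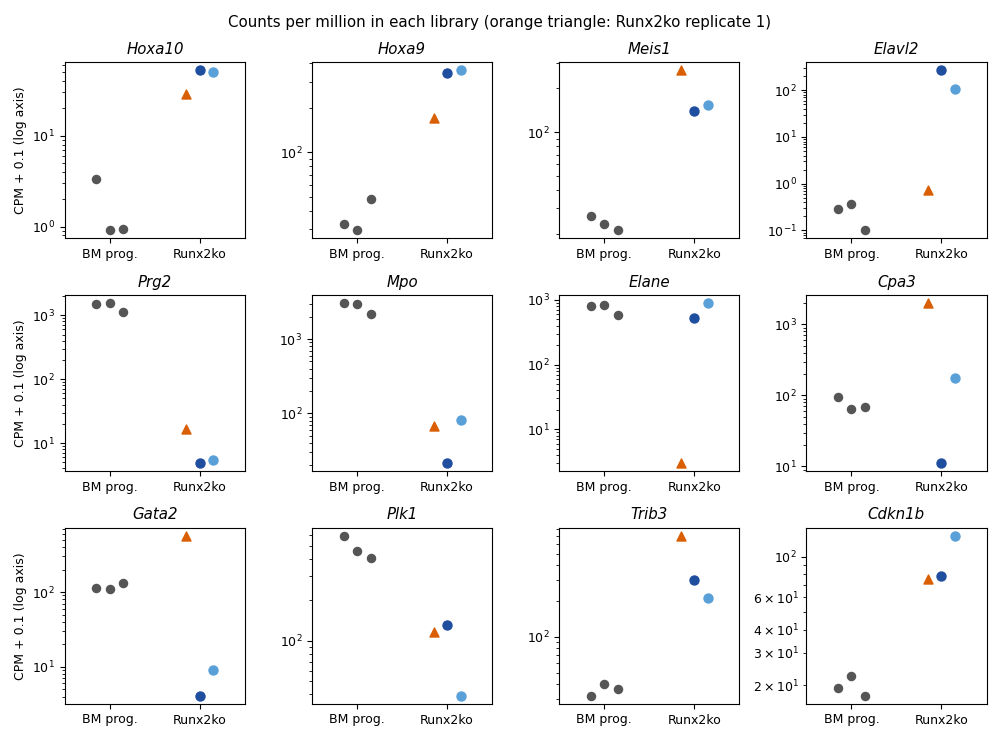
CPM plus 0.1, on a log axis, of 12 genes in the 3 BM progenitor libraries (grey) and the 3 Runx2ko libraries (orange triangle for replicate 1, dark and light blue for replicates 2 and 3). Hoxa10, Hoxa9, Meis1, Trib3 and Cdkn1b lie higher and Prg2, Mpo and Plk1 lower in every Runx2ko library, whereas Elavl2, Elane, Cpa3 and Gata2 have replicate 1 far from replicates 2 and 3. In Cpa3 replicates 2 and 3 lie far apart as well.

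**Figure D2:**
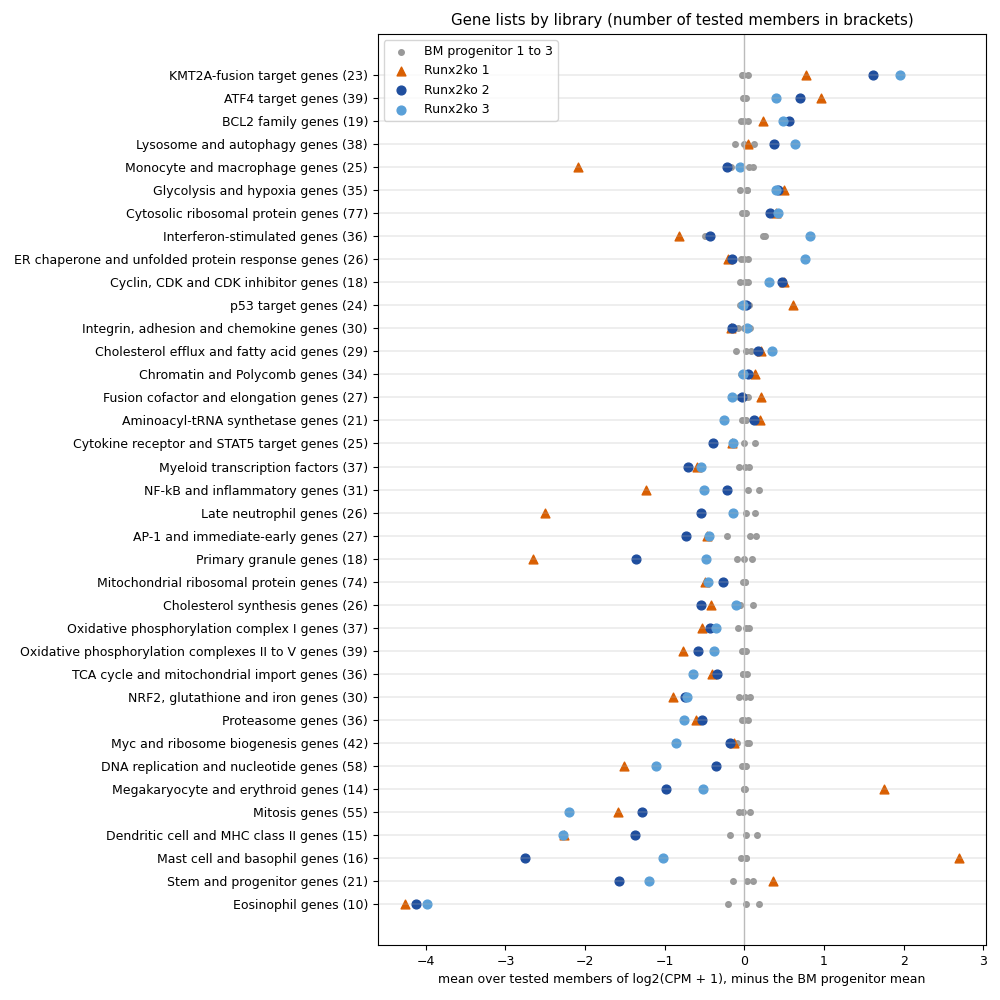
For each gene list with at least 10 tested members (number in brackets), the mean over members of log2(CPM + 1) in each library minus the BM progenitor mean; lists are ordered by their median log2 fold change without replicate 1. Mast cell and basophil genes and megakaryocyte and erythroid genes lie above BM progenitor in replicate 1 and below it in replicates 2 and 3, whereas mitosis, eosinophil and proteasome genes lie below it in all 3.

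Targets of the fusion were higher. Of the KMT2A-fusion target genes, 23 of 29 listed were tested, 11 rose and 1 fell, with a median log2 fold change of 1.43. For the KMT2A-fusion target genes without replicate 1, 15 of 23 rose and 2 fell, with a median of 1.79. Among all genes tested 10.0% rose and 7.14% fell with all 6 libraries, and 15.9% and 12.6% without replicate 1. KMT2A-fusion target genes that rose numbered 7 and 7 (BM progenitor replicates 1 and 3 left out). Six4, a homeobox transcription factor, was at 1.28, 0.270 and 0.637 CPM in BM progenitor and 8.73, 57.1 and 124 CPM in Runx2ko. Replicate 1 was well below the other 2 Runx2ko libraries yet above every BM progenitor library, and the Six4 log2 fold change was 6.30 (SE 1.05, edgeR adjusted p = 0.00709) and 6.79 without replicate 1 (SE 0.63, adjusted p = 5.02e-05).

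Hoxa9, Hoxa10 and Hoxa7, the 3 members of the Hoxa cluster printed here, passed as well. The other Hoxa genes of the list are not reported here. Hoxa9 was at 32.3, 29.4 and 47.8 CPM in BM progenitor and 169, 341 and 358 CPM in Runx2ko and changed by 2.98 (SE 0.31, edgeR adjusted p = 0.0015) and 3.25 without replicate 1 (SE 0.21, adjusted p = 5.78e-06). Hoxa10 was at 3.28, 0.809 and 0.850 CPM in BM progenitor and 28.8, 52.3 and 49.9 CPM in Runx2ko. The Hoxa10 log2 fold change was 4.63 (SE 0.47, edgeR adjusted p = 0.0015) and 4.83 without replicate 1 (SE 0.38, adjusted p = 1.53e-05). Hoxa7 was at 6.02, 4.32 and 7.43 CPM in BM progenitor and 38.8, 86 and 71.8 CPM in Runx2ko. The Hoxa7 log2 fold change was 3.46 (SE 0.35, edgeR adjusted p = 0.0015) and 3.71 without replicate 1 (SE 0.26, adjusted p = 9.41e-06). In all 3 genes replicate 1 was the lowest Runx2ko library, and the groups did not overlap. Meis1, which binds DNA together with Hox proteins, had replicate 1 as its highest library, at 26.6, 23.2 and 21 CPM in BM progenitor and 266, 139 and 154 CPM in Runx2ko. The Meis1 log2 fold change was 2.98 (SE 0.31, edgeR adjusted p = 0.0015) and 2.63 without replicate 1 (SE 0.23, adjusted p = 4.03e-05). In the Runx2wt libraries Hoxa10 stood at 114, 137 and 144 CPM and Hoxa9 at 463, 517 and 435 CPM, above the Runx2ko libraries in both genes, but the difference did not pass (log2 Runx2ko minus Runx2wt -1.59, edgeR adjusted p = 0.579, and -1.37, adjusted p = 0.217, without replicate 1 for Hoxa10 and -0.70, edgeR adjusted p = 0.59, and -0.43, adjusted p = 0.654, without replicate 1 for Hoxa9). Gfi1, a repressor that steers progenitors to granulocytes, rose by 1.80 log2 units and 2.08 without replicate 1 (edgeR adjusted p = 0.0172 and 0.000972). Flt3, the receptor of a growth factor of early progenitors, fell: it was at 6.57, 10.3 and 7.65 CPM in BM progenitor and 0.647, 0 and 0 CPM in Runx2ko, and BM progenitor libraries held 47.6 times as much (exact 95% interval 12.9 to 398.3, from 2 counts in Runx2ko, counting error only), or at least 24.3 times as much without replicate 1, against a floor of 3 counts over the group (edgeR adjusted p = 0.0119 and 0.00155). The call of Gfi1 was lost without BM progenitor replicates 1, 2 or 3 (highest adjusted p 0.0773); the call of Flt3 was lost without BM progenitor replicates 2 or 3 (highest adjusted p 0.0587).

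Of the cofactors of the fusion and elongation factors, 27 of 28 listed were tested, 3 rose and 2 fell, with a median log2 fold change of 0.07. For the cofactors of the fusion and elongation factors without replicate 1, 4 of 27 rose and 5 fell, with a median of 0.02. With all 6 libraries the counts were near the shares of all genes tested, 10.0% up and 7.14% down. Without replicate 1 those shares were 15.9% and 12.6%. Cofactors of the fusion and elongation factors that rose numbered 0, 1 and 0 (BM progenitor replicates 1, 2 and 3 left out). Kmt2a itself rose by 1.23 log2 units and 1.37 without replicate 1 (edgeR adjusted p = 0.0117 and 0.00149), from 131, 162 and 140.0 CPM in BM progenitor to 271, 311 and 434 CPM in Runx2ko. The call of Kmt2a was lost without BM progenitor replicates 1 or 3 (highest adjusted p 0.0626). These are tags near the 3' end of the mouse gene and are no measure of the fusion. Whether transcripts of the retrovirus add to them was not tested.

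Several of the largest rises were in genes that BM progenitor cells barely expressed. Elavl2, an RNA-binding protein best known from neurons, was at 0.182, 0.270 and 0 CPM in BM progenitor and 0.647, 267 and 107 CPM in Runx2ko; replicate 1 was near the BM progenitor level, and the rise rests on the other 2 libraries. Its ratio of Runx2ko to BM progenitor was 1038 (exact 95% interval 286.9 to 8577, from 2 counts in BM progenitor) and 1395 without replicate 1 (385.6 to 11529). Tenm4, a transmembrane protein of the teneurin family, was at 0, 0.540 and 0 CPM in BM progenitor and 4.2, 48 and 37.1 CPM in Runx2ko and had a ratio of 232.1 (63.8 to 1923) and 302.2 without replicate 1 (83.1 to 2504). Bcl2l14, a BCL2-related gene, was at 0, 0 and 0.212 CPM in BM progenitor and 3.23, 12.9 and 17.1 CPM in Runx2ko, with a ratio of 162.8 (28.7 to 6475) and 203.5 (35.9 to 8099). The edgeR adjusted p was 0.0129, 0.00664 and 0.00598 for these 3 genes and 5.78e-06, 2.6e-05 and 0.000213 without replicate 1, and the intervals cover counting error only. The call of Elavl2 was lost without BM progenitor replicates 1, 2 or 3 (highest adjusted p 0.0643).

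Eosinophil genes were nearly silent in Runx2ko. Of the eosinophil genes, 10 of 12 listed were tested, 0 rose and 8 fell, with a median log2 fold change of -6.06. For the eosinophil genes without replicate 1, 0 of 10 rose and 8 fell, with a median of -6.65. The groups did not overlap in 9 of the 10, all lower, with and without replicate 1, against 18.8% and 28.6% of all tested genes that were lower without overlap. Prg2, the major basic protein of eosinophil granules, was at 1509, 1556 and 1142 CPM in BM progenitor and 16.5, 4.76 and 5.42 CPM in Runx2ko. All 3 Runx2ko libraries lay far below BM progenitor, and the log2 fold change was -7.34 (SE 0.60, edgeR adjusted p = 0.000769) and -8.11 without replicate 1 (SE 0.41, adjusted p = 9.04e-07). Epx, eosinophil peroxidase, had 1 count in the 3 Runx2ko libraries and was at 49.6, 46.7 and 39.3 CPM in BM progenitor and 0.323, 0 and 0 CPM in Runx2ko; BM progenitor was 545.7 times as high (97.6 to 21587), and at least 134.8 times as high without replicate 1 (adjusted p = 0.00138 and 4.34e-05). Ear6, an eosinophil-associated ribonuclease whose relatives may share reads, stood at 96.3, 83.4 and 82.2 CPM in BM progenitor and 0, 0.190 and 0.271 CPM in Runx2ko and was 530.1 times as high in BM progenitor (146.4 to 4382), and 393.9 times without replicate 1 (108.8 to 3257; edgeR adjusted p = 5.57e-05 and 7.83e-07). Summed over the tested list, the level was 1861, 1873 and 1409 CPM in BM progenitor and 20.7, 18.1 and 24.7 CPM in Runx2ko. As these are bulk libraries, fewer cells of a type and less RNA per cell cannot be told apart, here and in every lineage list below.

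Granule genes of neutrophils and their precursors split. Of the primary granule genes, 18 of 18 listed were tested, 1 rose and 5 fell, with a median log2 fold change of -0.62. For the primary granule genes without replicate 1, 3 of 18 rose and 5 fell, with a median of -0.39, or -1.28 with Runx2ko replicate 3 left out. The shares of all genes that rose and fell were 10.0% and 7.14%, and 15.9% and 12.6% without replicate 1. Primary granule genes that fell numbered 3, 3 and 3 (BM progenitor replicates 1, 2 and 3 left out). Mpo, myeloperoxidase, was at 3055, 2939 and 2168 CPM in BM progenitor and 67, 21.3 and 80.2 CPM in Runx2ko. The Mpo log2 fold change was -5.60 (SE 0.53, edgeR adjusted p = 0.00138) and -5.76 without replicate 1 (SE 0.56, adjusted p = 7.01e-05). Fcnb, a ficolin, had 1 count in Runx2ko against 52.7, 47.7 and 28.2 CPM in BM progenitor, a ratio of 518.8 (92.8 to 20527) and 385.6 without replicate 1 (68.9 to 15254). Elane and Prtn3, elastase and proteinase 3, lie side by side in the genome and are stored in the same granules as Mpo. They did not follow it: Elane was at 818, 837 and 576 CPM in BM progenitor and 2.91, 518 and 895 CPM in Runx2ko and Prtn3 at 1292, 1374 and 1022 CPM in BM progenitor and 26.8, 663 and 1091 CPM in Runx2ko. For both genes replicates 2 and 3 were near the BM progenitor range while replicate 1 was far under it, and the fold changes, -0.65 log2 units and -0.08 without replicate 1 (edgeR adjusted p = 0.734 and 0.925) for Elane and -1.05 log2 units and -0.49 without replicate 1 (edgeR adjusted p = 0.434 and 0.261) for Prtn3, did not pass in either set.

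Of the late neutrophil genes, 26 of 27 listed were tested, 2 rose and 2 fell, with a median log2 fold change of -0.43. For the late neutrophil genes without replicate 1, 4 of 26 rose and 4 fell, with a median of -0.24, or -0.77 and -1.03 with Runx2ko replicates 2 or 3 left out. These counts were near the shares of all genes tested, 10.0% up and 7.14% down with all 6 libraries. Without replicate 1 the shares were 15.9% and 12.6%, again near the counts. Those that fell with all 6 libraries were secondary granule genes: Camp, cathelicidin, was at 412, 437 and 339 CPM in BM progenitor and 2.59, 11.8 and 23.3 CPM in Runx2ko. The Camp log2 fold change was -4.96 (SE 0.87, edgeR adjusted p = 0.00866) and -4.52 without replicate 1 (SE 0.63, adjusted p = 0.000627). Ltf, lactoferrin, changed by -3.65 log2 units and -3.70 without replicate 1 (edgeR adjusted p = 0.00664 and 0.000752). Padi4, the enzyme that citrullinates histones in neutrophils, rose, at 21.2, 12.9 and 11.9 CPM in BM progenitor and 53.7, 39 and 56.1 CPM in Runx2ko. The Padi4 log2 fold change was 1.68 (SE 0.27, edgeR adjusted p = 0.00668) and 1.61 without replicate 1 (SE 0.29, adjusted p = 0.00231). Ly6g, the surface marker used to sort mouse neutrophils, was at 1.28, 0.540 and 2.34 CPM in BM progenitor and 171, 35.2 and 33.3 CPM in Runx2ko, highest in replicate 1, and rose by 5.78 log2 units and 4.56 without replicate 1 (edgeR adjusted p = 0.00945 and 0.00161). Summed over the tested list, the level was 16278, 13122 and 12948 CPM in BM progenitor and 1315, 9299 and 16724 CPM in Runx2ko, lowest in replicate 1. The call of Ly6g was lost without BM progenitor replicates 1 or 2 (highest adjusted p 0.0516).

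Of the stem and progenitor genes, 21 of 25 listed were tested, 3 rose and 2 fell, with a median log2 fold change of 0.05. For the stem and progenitor genes without replicate 1, 4 of 22 rose and 11 fell, with a median of -2.30. With all 6 libraries the counts were close to the shares of all genes tested, 10.0% up and 7.14% down. Without replicate 1 those shares were 15.9% and 12.6%. Hlf, a transcription factor of stem cells, was at 23.5, 26.2 and 15.3 CPM in BM progenitor and 0.323, 0 and 1.08 CPM in Runx2ko. The Hlf log2 fold change was -5.55 (SE 0.84, edgeR adjusted p = 0.00538) and -5.46 without replicate 1 (SE 0.81, adjusted p = 0.000854). Adgrl4, an adhesion receptor, changed by -4.99 log2 units and -4.55 without replicate 1 (edgeR adjusted p = 0.00701 and 0.000768). Muc13, a membrane mucin, rose with little spread, at 122, 127 and 107 CPM in BM progenitor and 475, 463 and 395 CPM in Runx2ko. The Muc13 log2 fold change was 1.90 (SE 0.16, edgeR adjusted p = 0.000899) and 1.85 without replicate 1 (SE 0.17, adjusted p = 5.09e-05). Erg, an ETS factor of stem cells, rose by 1.32 log2 units and 1.13 without replicate 1 (edgeR adjusted p = 0.0075 and 0.00508). Cd34, the surface marker of progenitors, was at 81, 83.1 and 76.9 CPM in BM progenitor and 34.6, 1.9 and 6.78 CPM in Runx2ko; it passed only without replicate 1, with -2.52 (SE 0.91, edgeR adjusted p = 0.0844) and -4.29 without replicate 1 (SE 0.69, adjusted p = 0.00131). The list thus held members that went in both directions, and a count of members that fell which rested on whether replicate 1 was in the comparison.

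Genes of dendritic cells were low. Of the dendritic cell and MHC class II list, 15 of 19 listed were tested, 0 rose and 5 fell, with a median log2 fold change of -2.0. For the dendritic cell and MHC class II list without replicate 1, 1 of 15 rose and 7 fell, with a median of -1.87, or -3.15 with Runx2ko replicate 2 left out. Over all genes tested, 7.14% fell with all 6 libraries and 12.6% without replicate 1. Dendritic cell genes that fell numbered 8 (Runx2ko replicate 2 left out) and 3, 2 and 2 (BM progenitor replicates 1, 2 and 3 left out), and 8 (DESeq2) and 8 (no filter). Batf3, the factor that type 1 dendritic cells need, was at 12.2, 22.1 and 28 CPM in BM progenitor and 0, 0.761 and 0.542 CPM in Runx2ko. The Batf3 log2 fold change was -5.36 (SE 0.67, edgeR adjusted p = 0.00269) and -4.91 without replicate 1 (SE 0.58, adjusted p = 0.000234). Siglech, a lectin of plasmacytoid dendritic cells, changed by -4.49 log2 units and -5.51 without replicate 1 (edgeR adjusted p = 0.00432 and 0.000213), of which the second value rests on 3 counts in Runx2ko (ratio of BM progenitor to Runx2ko 51.5, 17.4 to 251.5). Irf8, which monocytes and dendritic cells need, was at 230.3, 168 and 169 CPM in BM progenitor and 9.06, 48.7 and 93.5 CPM in Runx2ko; it passed only without replicate 1, with -1.90 (SE 0.59, edgeR adjusted p = 0.0544) and -1.42 without replicate 1 (SE 0.27, adjusted p = 0.00323).

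Of the monocyte and macrophage genes, 25 of 27 listed were tested, 2 rose and 6 fell, with a median log2 fold change of -0.02. For the monocyte and macrophage genes without replicate 1, 7 of 26 rose and 6 fell, with a median of 0.48, or -0.35 and -0.83 with Runx2ko replicates 2 or 3 left out. Monocyte and macrophage genes that fell numbered 1, 3 and 1 (BM progenitor replicates 1, 2 and 3 left out). Beside these counts, 10.0% of all genes tested rose and 7.14% fell, and 15.9% and 12.6% without replicate 1. Vcan, a proteoglycan made by monocytes, was at 65.9, 70.9 and 81.1 CPM in BM progenitor and 4.2, 13.3 and 3.79 CPM in Runx2ko. The Vcan log2 fold change was -3.30 (SE 0.58, edgeR adjusted p = 0.00864) and -3.03 without replicate 1 (SE 0.54, adjusted p = 0.00231). Outside the list, Ccl24, Cmklr1 and Arg1 were named for being among the largest falls. Ccl24, a chemokine that attracts eosinophils, was at 103, 188 and 158 CPM in BM progenitor and 2.26, 2.28 and 1.9 CPM in Runx2ko. The Ccl24 log2 fold change was -6.10 (SE 0.38, edgeR adjusted p = 0.000163) and -6.13 without replicate 1 (SE 0.40, adjusted p = 5.78e-06). Cmklr1, the chemerin receptor, changed by -5.99 log2 units and -5.73 without replicate 1 (edgeR adjusted p = 0.00352 and 0.000401). Arg1, arginase of alternatively activated macrophages, had 1 count in Runx2ko and was at 13.9, 35.1 and 38 CPM in BM progenitor, 333.5 times as high (59.5 to 13205) and at least 86.4 times as high without replicate 1 (edgeR adjusted p = 0.0015 and 0.000163). Csf1r, the M-CSF receptor and a member of the list, was at 173, 152 and 147 CPM in BM progenitor and 9.7, 116 and 219.5 CPM in Runx2ko and Spi1, the factor PU.1, which is in the myeloid factor list instead, at 346, 298 and 317 CPM in BM progenitor and 135, 321 and 379.7 CPM in Runx2ko. Neither passed: their fold changes were -0.45 log2 units and 0.08 without replicate 1 (edgeR adjusted p = 0.734 and 0.9) and -0.20 log2 units and 0.13 without replicate 1 (edgeR adjusted p = 0.696 and 0.607), with a sign that depended on replicate 1. Summed over all 27 listed members, the level was 3329, 2409 and 3344 CPM in BM progenitor and 611, 3054 and 5915 CPM in Runx2ko, lowest in replicate 1.

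Mast cell genes set replicate 1 apart. Of the mast cell and basophil genes, 16 of 22 listed were tested, 2 rose and 0 fell, with a median log2 fold change of 1.89. For the mast cell and basophil genes without replicate 1, 2 of 16 rose and 10 fell, with a median of -2.08. All genes tested gave 10.0% up and 7.14% down, and 15.9% and 12.6% without replicate 1. Cpa3, the carboxypeptidase of mast cell granules, was at 94.2, 63.9 and 69.7 CPM in BM progenitor and 2002, 11 and 175 CPM in Runx2ko, and Mcpt8, a basophil protease, at 412, 345 and 396 CPM in BM progenitor and 307, 4.38 and 8.67 CPM in Runx2ko; Gata2, a factor of stem cells and mast cells, was at 114, 108 and 133 CPM in BM progenitor and 567, 3.996 and 8.94 CPM in Runx2ko. In all 3 genes replicate 1 was far above replicates 2 and 3, and for Cpa3 and Gata2 also above every BM progenitor library. With all 6 libraries none of the 3 passed, with 3.26 log2 units and 0.27 without replicate 1 (edgeR adjusted p = 0.139 and 0.842) for Cpa3, -1.86 log2 units and -5.92 without replicate 1 (edgeR adjusted p = 0.315 and 1.53e-05) for Mcpt8 and 0.70 log2 units and -4.24 without replicate 1 (edgeR adjusted p = 0.759 and 0.00107) for Gata2; without replicate 1 Mcpt8 and Gata2 were lower (edgeR adjusted p = 1.53e-05 and 0.00107). Tpsb2, a tryptase of mast cells, had no count in BM progenitor and was at 203, 5.52 and 81.8 CPM in Runx2ko, at least 448.5-fold higher and at least 202.3-fold higher without replicate 1 (adjusted p = 0.0274 and 0.0114). Cma1, chymase, rose by 7.93 log2 units and 7.71 without replicate 1 (edgeR adjusted p = 0.0167 and 0.00724), at 0.182, 0.270 and 0.425 CPM in BM progenitor and 98.3, 7.04 and 128 CPM in Runx2ko. Summed over all 22 listed members, the level was 1549, 1418 and 1525 CPM in BM progenitor and 8919, 143 and 597 CPM in Runx2ko. The call of Tpsb2 was lost without Runx2ko replicate 3 or without BM progenitor replicates 1, 2 or 3 (highest adjusted p 0.0851); the call of Cma1 was lost without BM progenitor replicates 1, 2 or 3 (highest adjusted p 0.0727).

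Of the megakaryocyte and erythroid genes, 14 of 26 listed were tested, 3 rose and 0 fell, with a median log2 fold change of 0.81. For the megakaryocyte and erythroid genes without replicate 1, 3 of 14 rose and 6 fell, with a median of -1.08. Megakaryocyte and erythroid genes that rose numbered 1 (Runx2ko replicate 3 left out) and 0, 0 and 0 (BM progenitor replicates 1, 2 and 3 left out), and 5 (DESeq2). Shares of all genes tested were 10.0% up and 7.14% down, and 15.9% and 12.6% without replicate 1. Gata1, the master factor of these lineages, was at 7.12, 8.63 and 11.7 CPM in BM progenitor and 35.3, 0.381 and 0 CPM in Runx2ko; BM progenitor libraries held 40.6 times as much as Runx2ko replicates 2 and 3 (11 to 338.5, from 2 counts), with adjusted p = 0.00155, while with replicate 1 the log2 fold change was 0.35 (edgeR adjusted p = 0.881). The summed level of the list was 539.6, 514 and 562 CPM in BM progenitor and 2147, 352 and 408 CPM in Runx2ko. Of the lymphoid genes, 5 of 25 listed were tested, 1 rose and 0 fell, with a median log2 fold change of 0.58. For the lymphoid genes without replicate 1, 1 of 6 rose and 0 fell, with a median of -0.18. Of the stromal and endothelial genes, 3 of 17 listed were tested, 0 rose and 1 fell, with a median log2 fold change of 0.67. For the stromal and endothelial genes without replicate 1, 0 of 5 rose and 2 fell, with a median of -2.0. Most members of these last 2 lists were thus too low to test. Of the skeletal targets of Runx2, 3 of 9 listed were tested, 2 rose and 0 fell, with a median log2 fold change of 2.16. For the skeletal targets of Runx2 without replicate 1, 3 of 3 rose and 0 fell, with a median of 2.42. Spp1, osteopontin, was at 10.2, 18.1 and 26.8 CPM in BM progenitor and 45.3, 312 and 269.9 CPM in Runx2ko and its log2 fold change was 3.51 (SE 0.82, edgeR adjusted p = 0.0215) and 3.99 without replicate 1 (SE 0.59, adjusted p = 0.000865). The call of Spp1 was lost without BM progenitor replicates 1, 2 or 3 (highest adjusted p 0.086).

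Mitosis genes were lower throughout. Of the mitosis genes, 55 of 56 listed were tested, 0 rose and 44 fell, with a median log2 fold change of -1.66. For the mitosis genes without replicate 1, 0 of 55 rose and 48 fell, with a median of -1.62. In 55 of 55 tested members every Runx2ko library was below every BM progenitor library, with and without replicate 1, against 18.8% and 28.6% of all tested genes that were lower without overlap. Mitosis genes that fell numbered 29 (Runx2ko replicate 3 left out) and 18, 19 and 19 (BM progenitor replicates 1, 2 and 3 left out). Kif23, a kinesin of the cytokinetic midbody, was at 154, 143 and 148 CPM in BM progenitor and 27.2, 22.1 and 12.5 CPM in Runx2ko. The Kif23 log2 fold change was -2.85 (SE 0.34, edgeR adjusted p = 0.00236) and -3.09 without replicate 1 (SE 0.34, adjusted p = 0.000178). Bub1, a kinase of the spindle checkpoint, was at 36.7, 38.3 and 37 CPM in BM progenitor and 5.82, 7.42 and 5.15 CPM in Runx2ko. The Bub1 log2 fold change was -2.59 (SE 0.34, edgeR adjusted p = 0.0031) and -2.55 without replicate 1 (SE 0.38, adjusted p = 0.000912). Plk1, a kinase that drives entry into and passage through mitosis, was at 594, 457 and 405 CPM in BM progenitor and 115, 129 and 39 CPM in Runx2ko. The Plk1 log2 fold change was -2.36 (SE 0.45, edgeR adjusted p = 0.0117) and -2.52 without replicate 1 (SE 0.48, adjusted p = 0.00323). Replicate 3 was the lowest Runx2ko library in all 3 genes. Aurka, the spindle pole kinase, changed by -2.12 log2 units and -2.10 without replicate 1 (edgeR adjusted p = 0.00422 and 0.00106), and Cdc20, which activates the anaphase-promoting complex, by -2.14 log2 units and -2.57 without replicate 1 (edgeR adjusted p = 0.0251 and 0.00405). Kif2c, a kinesin that takes microtubules apart, changed by -2.35 log2 units and -2.36 without replicate 1 (edgeR adjusted p = 0.0484 and 0.0263). Summed over the list, the level was 8328, 7531 and 7459.5 CPM in BM progenitor and 2602, 3591 and 1865 CPM in Runx2ko. The calls of Cdc20 and Kif2c were lost without BM progenitor replicates 1, 2 or 3 (highest adjusted p 0.0775 and 0.128).

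Promoters of late cell cycle genes often carry a CHR element (TTTGAA), the site through which the DREAM and MuvB complexes repress them outside division. Both strands of the window from 250 bases before to 50 bases after each start were searched in the promoters listed by RefSeq on GRCm38.p6. The element was in 34 of the 49 promoters of the 46 mitosis genes with an entry, or 69.4%, and in 17.9% of all 32851 promoters. The stretches below, 5′ to 3′ on the strand of the gene, show it in 5 genes that fell, with the match in capitals. Kif2c carries it on the other strand, so it reads as its reverse complement there. The plan was to print only matches before the start. In Kif23, Plk1 and Aurka the match begins after it, at positions 3, 31 and 33. Cdc20 and Aurka were added after their values were seen. For Bub1, which also fell, the search gave no stretch to print.
Kif23, chr9:61946780-61946809, minus strand: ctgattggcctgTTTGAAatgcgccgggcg
Plk1, chr7:122159453-122159482, plus strand: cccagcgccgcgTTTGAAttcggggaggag
Cdc20, chr4:118437344-118437383, minus strand: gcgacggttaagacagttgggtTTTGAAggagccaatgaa
Aurka, chr2:172370521-172370550, minus strand: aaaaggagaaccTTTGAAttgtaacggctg
Kif2c, chr4:117178848-117178897, minus strand: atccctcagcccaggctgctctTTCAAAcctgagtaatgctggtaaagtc
A match describes the letters in this window and shows no binding.

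Replication genes were lower too. Of the replication and nucleotide genes, 58 of 59 listed were tested, 0 rose and 24 fell, with a median log2 fold change of -0.84. For the replication and nucleotide genes without replicate 1, 0 of 58 rose and 24 fell, with a median of -0.68. The share of all genes tested that fell was 7.14%, and 12.6% without replicate 1. Replication and nucleotide genes that fell numbered 43 and 11 (Runx2ko replicates 2 and 3 left out) and 2, 2 and 4 (BM progenitor replicates 1, 2 and 3 left out), and 9 (only the compared libraries in the fit), which makes this count depend on single libraries more than that of the mitosis genes. Mcm10, which joins the replicative helicase as origins fire, was at 97.4, 89.8 and 94.5 CPM in BM progenitor and 14.2, 43.2 and 19.5 CPM in Runx2ko. The Mcm10 log2 fold change was -1.86 (SE 0.35, edgeR adjusted p = 0.0106) and -1.57 without replicate 1 (SE 0.28, adjusted p = 0.00246). Mcm7, a subunit of that helicase, was at 256, 242 and 208 CPM in BM progenitor and 67.6, 118 and 70.2 CPM in Runx2ko. The Mcm7 log2 fold change was -1.46 (SE 0.28, edgeR adjusted p = 0.0118) and -1.32 without replicate 1 (SE 0.28, adjusted p = 0.00626). Summed over the list, the level was 7537, 7364 and 7262 CPM in BM progenitor and 3052, 5705 and 3322 CPM in Runx2ko. The call of Mcm7 was lost without BM progenitor replicates 1 or 2 (highest adjusted p 0.0516).

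Some inhibitors of the cyclin-dependent kinases rose and others did not. Of the cyclins, CDKs and CDK inhibitors, 18 of 19 listed were tested, 5 rose and 1 fell, with a median log2 fold change of 0.07. For the cyclins, CDKs and CDK inhibitors without replicate 1, 6 of 18 rose and 4 fell, with a median of 0.26. Cyclins, CDKs and CDK inhibitors that rose numbered 2, 3 and 2 (BM progenitor replicates 1, 2 and 3 left out). Beside this list and the p53 targets below, 10.0% of all genes tested rose and 7.14% fell, and 15.9% and 12.6% without replicate 1. Cdkn1b, the inhibitor p27, was at 19.2, 22.4 and 17.4 CPM in BM progenitor and 75, 78.8 and 129.8 CPM in Runx2ko. The Cdkn1b log2 fold change was 2.27 (SE 0.31, edgeR adjusted p = 0.00375) and 2.40 without replicate 1 (SE 0.30, adjusted p = 0.000321), and no Runx2ko library overlapped BM progenitor. Cdkn1c, the inhibitor p57, had no count in BM progenitor and was at 2.91, 4.38 and 10.03 CPM in Runx2ko, at least 26.7-fold higher and at least 33.4-fold higher without replicate 1 (adjusted p = 0.00701 and 0.00111). Cdkn2a, which encodes p16 and Arf, was at 0.182, 0.809 and 0.425 CPM in BM progenitor and 308, 3.43 and 3.25 CPM in Runx2ko: almost all of the group's counts came from replicate 1, and the log2 fold change went from 7.80 to 2.84 without it (edgeR adjusted p = 0.029 and 0.0111). Cdkn1a, the p53 target p21, was at 191, 237 and 188 CPM in BM progenitor and 245, 125 and 81 CPM in Runx2ko. The Cdkn1a change was -0.45 log2 units and -1.0 without replicate 1 (edgeR adjusted p = 0.466 and 0.0358), which passed only without replicate 1. Of the p53 target genes, 24 of 27 listed were tested, 5 rose and 1 fell, with a median log2 fold change of 0.49. For the p53 target genes without replicate 1, 5 of 25 rose and 5 fell, with a median of 0.15. P53 target genes that rose numbered 1, 1 and 0 (BM progenitor replicates 1, 2 and 3 left out), and 2 (only the compared libraries in the fit). The call of Cdkn2a was lost without BM progenitor replicates 1, 2 or 3 (highest adjusted p 0.111).

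Of the BCL2 family genes, 19 of 22 listed were tested, 5 rose and 0 fell, with a median log2 fold change of 0.53. For the BCL2 family genes without replicate 1, 7 of 19 rose and 1 fell, with a median of 0.58. BCL2 family genes that rose numbered 2, 2 and 2 (BM progenitor replicates 1, 2 and 3 left out). Beside this list and the Myc network list below, 10.0% of all genes tested rose and 7.14% fell, and 15.9% and 12.6% without replicate 1. Bnip3l, a receptor that marks mitochondria for autophagy, was at 36.5, 36.4 and 32.1 CPM in BM progenitor and 90.6, 84.5 and 128 CPM in Runx2ko. The Bnip3l log2 fold change was 1.53 (SE 0.22, edgeR adjusted p = 0.00464) and 1.59 without replicate 1 (SE 0.23, adjusted p = 0.000745). Of the Myc network and ribosome biogenesis genes, 42 of 42 listed were tested, 2 rose and 5 fell, with a median log2 fold change of -0.47. For the Myc network and ribosome biogenesis genes without replicate 1, 3 of 42 rose and 13 fell, with a median of -0.65. Myc did not pass, at 37.4, 52.9 and 54.4 CPM in BM progenitor and 58.5, 67.2 and 53.9 CPM in Runx2ko, with 0.31 log2 units and 0.33 without replicate 1 (edgeR adjusted p = 0.389 and 0.358). Mnt, a repressor that competes with Myc for its partner, was at 22.1, 24.3 and 19.96 CPM in BM progenitor and 92.8, 67.7 and 54.5 CPM in Runx2ko. The Mnt log2 fold change was 1.70 (SE 0.24, edgeR adjusted p = 0.00432) and 1.47 without replicate 1 (SE 0.21, adjusted p = 0.000797). Myc network and ribosome biogenesis genes that fell numbered 8 and 1 (Runx2ko replicates 2 and 3 left out) and 0, 0 and 0 (BM progenitor replicates 1, 2 and 3 left out), and 0 (only the compared libraries in the fit).

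**Figure D3:**
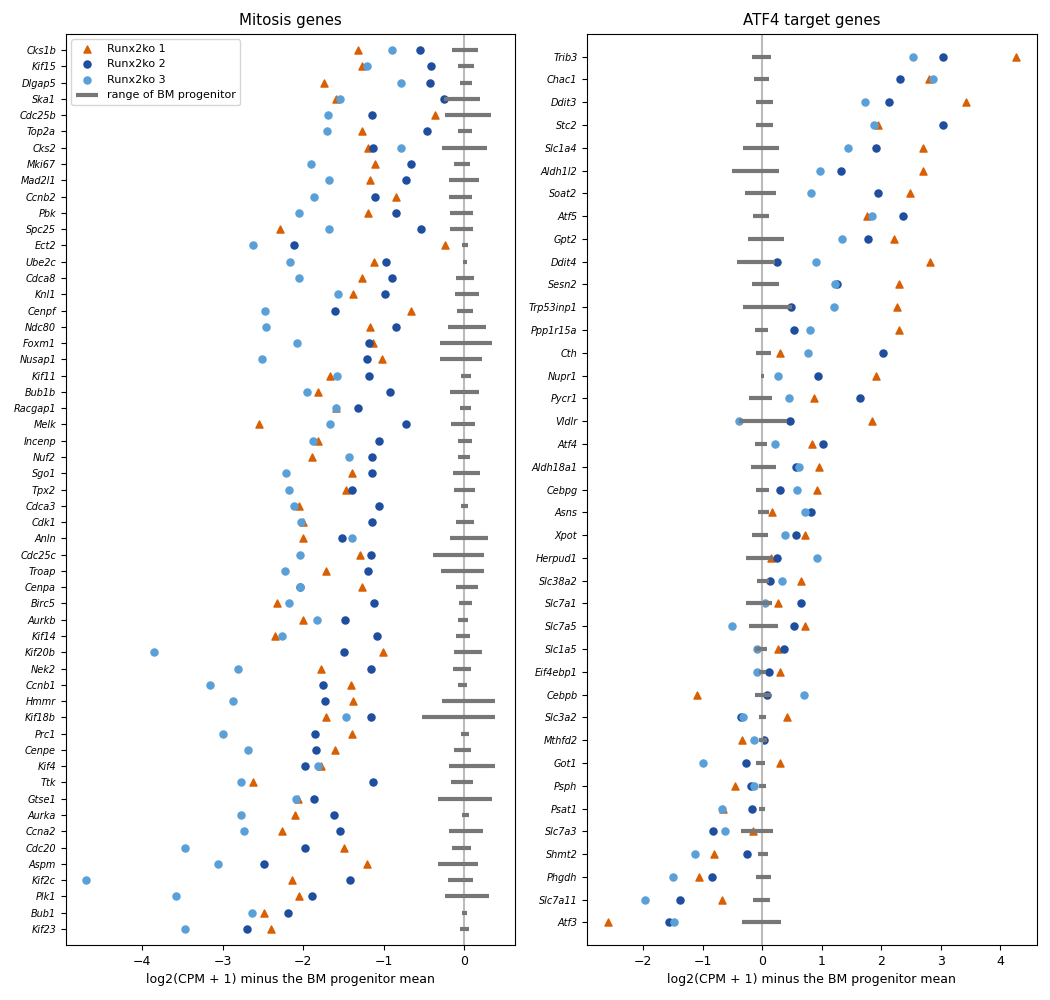
For each tested mitosis gene (left) and ATF4 target gene (right), log2(CPM + 1) in each Runx2ko library minus the BM progenitor mean; the grey bar is the range of the 3 BM progenitor libraries around their mean and genes are ordered by log2 fold change with all 6 libraries. All mitosis genes have every Runx2ko library to the left of the bar, while the ATF4 targets run from Trib3 and Chac1 on the right to Slc7a11 and Atf3 on the left.

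Targets of ATF4, the factor made when amino acids run short or proteins misfold, rose in part. Of the ATF4 target genes, 39 of 42 listed were tested, 15 rose and 3 fell, with a median log2 fold change of 0.62. For the ATF4 target genes without replicate 1, 14 of 39 rose and 3 fell, with a median of 0.59. The shares among all genes tested were 10.0% up and 7.14% down with all 6 libraries and 15.9% and 12.6% without replicate 1, so the share of ATF4 targets that fell was near or below that of all genes. ATF4 target genes that rose numbered 6, 7 and 6 (BM progenitor replicates 1, 2 and 3 left out), and 9 (only the compared libraries in the fit), and those that fell 1, 1 and 0 (BM progenitor replicates 1, 2 and 3 left out). Trib3, a pseudokinase that feeds back on the pathway, was at 31.9, 39.9 and 36.3 CPM in BM progenitor and 708, 302 and 213 CPM in Runx2ko. The Trib3 log2 fold change was 3.50 (SE 0.51, edgeR adjusted p = 0.00464) and 2.84 without replicate 1 (SE 0.34, adjusted p = 0.000262). Chac1, which breaks down glutathione, was at 8.21, 9.98 and 9.34 CPM in BM progenitor and 70.2, 49.5 and 73.4 CPM in Runx2ko. The Chac1 log2 fold change was 2.81 (SE 0.36, edgeR adjusted p = 0.00295) and 2.74 without replicate 1 (SE 0.36, adjusted p = 0.000424). Ddit3, the factor CHOP, was at 14.8, 17.8 and 14.4 CPM in BM progenitor and 178, 71.4 and 53.7 CPM in Runx2ko. The Ddit3 change was 2.68 log2 units and 2.0 without replicate 1 (edgeR adjusted p = 0.0135 and 0.00416). Stc2, a secreted glycoprotein, was at 13, 15.9 and 13.2 CPM in BM progenitor and 56.6, 121 and 53.7 CPM in Runx2ko. The Stc2 change was 2.47 log2 units and 2.65 without replicate 1 (edgeR adjusted p = 0.0031 and 0.000183). Slc1a4, a transporter of small neutral amino acids, rose by 2.21 log2 units and 1.78 without replicate 1 (edgeR adjusted p = 0.00664 and 0.00155). One of the 3 members that fell was Slc7a11, the cystine importer that feeds glutathione synthesis, at 230.1, 281 and 261 CPM in BM progenitor and 161, 98 and 64.8 CPM in Runx2ko. The Slc7a11 log2 fold change was -1.26 (SE 0.32, edgeR adjusted p = 0.0292) and -1.66 without replicate 1 (SE 0.26, adjusted p = 0.00114). Replicate 1 had the highest Trib3, Ddit3 and Slc7a11 of the 3 Runx2ko libraries. The call of Ddit3 was lost without BM progenitor replicates 1, 2 or 3 (highest adjusted p 0.0651); the call of Slc7a11 was lost without Runx2ko replicates 2 or 3 or without BM progenitor replicates 1, 2 or 3 (highest adjusted p 0.0974).

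The composite site that ATF4 binds together with C/EBP proteins (CARE, TGATGNAA) was in 12 of 40 promoters of the 34 ATF4 target genes with a RefSeq entry, or 30%, and in 3.97% of all 32851, by the same search of both strands. The stretches show it, in capitals, in 3 genes that rose and in Slc7a11, which fell, so the letters alone do not follow the direction. Slc7a11 and Slc1a4 were added after their values were seen. For Ddit3 and Stc2, which also rose, the search gave no stretch to print. In Chac1, Trib3 and Slc1a4 the match is on the other strand. The match in Trib3 begins after the start, at position 15.
Chac1, chr2:119351027-119351078, plus strand: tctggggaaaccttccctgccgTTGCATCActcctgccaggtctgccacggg
Trib3, chr2:152344028-152344057, minus strand: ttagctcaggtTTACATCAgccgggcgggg
Slc1a4, chr11:20332699-20332728, minus strand: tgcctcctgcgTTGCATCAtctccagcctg
Slc7a11, chr3:50443650-50443701, minus strand: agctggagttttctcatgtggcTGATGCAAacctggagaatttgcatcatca
Slc7a11 holds a second match on the other strand that starts within the same stretch.

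Of the ER chaperone and unfolded protein response genes, 26 of 27 listed were tested, 4 rose and 0 fell, with a median log2 fold change of 0.08. For the ER chaperone and unfolded protein response genes without replicate 1, 5 of 26 rose and 0 fell, with a median of 0.31, or -0.35 with Runx2ko replicate 3 left out. Ern1, the ER stress sensor IRE1, was at 27.6, 21 and 28.7 CPM in BM progenitor and 133, 69.7 and 72.6 CPM in Runx2ko. The Ern1 log2 fold change was 1.83 (SE 0.31, edgeR adjusted p = 0.00811) and 1.46 without replicate 1 (SE 0.25, adjusted p = 0.00187). Sel1l, which helps remove misfolded ER proteins, rose by 1.15 log2 units and 1.32 without replicate 1 (edgeR adjusted p = 0.0107 and 0.000518). ER chaperone and unfolded protein response genes that rose numbered 1, 1 and 1 (BM progenitor replicates 1, 2 and 3 left out), the number that fell was 6 (Runx2ko replicate 3 left out), and the summed level of the list was 10562, 10369.7 and 10246 CPM in BM progenitor and 8359.8, 7673 and 16757 CPM in Runx2ko, highest in replicate 3 alone. Of the aminoacyl-tRNA synthetase genes, 21 of 22 listed were tested, 3 rose and 2 fell, with a median log2 fold change of 0.02. For the aminoacyl-tRNA synthetase genes without replicate 1, 1 of 21 rose and 2 fell, with a median of -0.02. Aminoacyl-tRNA synthetase genes that rose numbered 1 (Runx2ko replicate 2 left out) and 0, 0 and 0 (BM progenitor replicates 1, 2 and 3 left out), and 1 (no filter) and 0 (only the compared libraries in the fit). The call of Sel1l was lost without BM progenitor replicates 1, 2 or 3 (highest adjusted p 0.0616).

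Protein synthesis genes of the cytosol and of mitochondria differed in direction. Of the cytosolic ribosomal protein genes, 77 of 81 listed were tested, 26 rose and 0 fell, with a median log2 fold change of 0.35. For the cytosolic ribosomal protein genes without replicate 1, 24 of 77 rose and 0 fell, with a median of 0.38. The groups did not overlap, with Runx2ko higher, in 59 of the 77 and in 61 without replicate 1, against 19.5% and 29.9% of all tested genes. Rpl13a was at 1723, 1782 and 1773 CPM in BM progenitor and 3314, 3311 and 3515 CPM in Runx2ko. The Rpl13a log2 fold change was 0.94 (SE 0.12, edgeR adjusted p = 0.00301) and 0.95 without replicate 1 (SE 0.15, adjusted p = 0.00114). Rps7 was at 569, 626 and 658 CPM in BM progenitor and 1295, 1179 and 1095 CPM in Runx2ko. The Rps7 log2 fold change was 0.95 (SE 0.17, edgeR adjusted p = 0.00892) and 0.88 without replicate 1 (SE 0.18, adjusted p = 0.00501). The groups did not overlap in either gene. Cytosolic ribosomal protein genes that rose numbered 11 (Runx2ko replicate 2 left out) and 2, 2 and 2 (BM progenitor replicates 1, 2 and 3 left out), and 13 (no filter). Rps4l, a ribosomal protein S4-like gene that is not in the list and was named for being among the largest falls, had no count in Runx2ko and was at 16.2, 15.4 and 11.9 CPM in BM progenitor, at least 58.2-fold lower in Runx2ko and at least 43.2-fold lower without replicate 1 (adjusted p = 0.00709 and 0.000925). Ribosomal genes have many near-identical copies that can share reads. Of the mitochondrial ribosomal protein genes, 74 of 76 listed were tested, 1 rose and 22 fell, with a median log2 fold change of -0.39. For the mitochondrial ribosomal protein genes without replicate 1, 3 of 74 rose and 23 fell, with a median of -0.42. Mitochondrial ribosomal protein genes that fell numbered 13 (Runx2ko replicate 3 left out) and 3, 1 and 5 (BM progenitor replicates 1, 2 and 3 left out), and 14 (only the compared libraries in the fit).

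Genes of mitochondrial respiration were lower. Of the complex I genes, 37 of 37 listed were tested, 0 rose and 12 fell, with a median log2 fold change of -0.40. For the complex I genes without replicate 1, 1 of 37 rose and 13 fell, with a median of -0.44. Of the genes of complexes II to V, 39 of 40 listed were tested, 0 rose and 17 fell, with a median log2 fold change of -0.54. For the genes of complexes II to V without replicate 1, 0 of 39 rose and 16 fell, with a median of -0.47. Over all genes tested, 7.14% fell with all 6 libraries and 12.6% without replicate 1. The numbers that fell were 1, 1 and 1 (BM progenitor replicates 1, 2 and 3 left out), and 7 (only the compared libraries in the fit) for complex I, and 8, 7 and 7 (BM progenitor replicates 1, 2 and 3 left out), and 11 (only the compared libraries in the fit) for complexes II to V. Ndufb6, an accessory subunit of complex I, was at 73, 80.4 and 92.4 CPM in BM progenitor and 27.2, 29.9 and 33.3 CPM in Runx2ko. The Ndufb6 log2 fold change was -1.44 (SE 0.20, edgeR adjusted p = 0.00394) and -1.38 without replicate 1 (SE 0.22, adjusted p = 0.00136). Cycs, cytochrome c, was at 58.8, 56.4 and 68 CPM in BM progenitor and 17.5, 31.4 and 19.5 CPM in Runx2ko. The Cycs log2 fold change was -1.41 (SE 0.26, edgeR adjusted p = 0.00945) and -1.25 without replicate 1 (SE 0.25, adjusted p = 0.00444). Cyc1, cytochrome c1 of complex III, changed by -1.11 log2 units and -1.25 without replicate 1 (edgeR adjusted p = 0.00705 and 0.000999). Atp5g3, a subunit of the ATP synthase ring, was at 2372, 2469 and 2443 CPM in BM progenitor and 899, 1219 and 1272 CPM in Runx2ko. The Atp5g3 change was -1.10 log2 units and -0.97 without replicate 1 (edgeR adjusted p = 0.00481 and 0.00146). Of the TCA cycle and mitochondrial import genes, 36 of 38 listed were tested, 1 rose and 10 fell, with a median log2 fold change of -0.46. For the TCA cycle and mitochondrial import genes without replicate 1, 1 of 38 rose and 14 fell, with a median of -0.48, and Hspd1, the mitochondrial chaperonin, changed by -1.10 log2 units and -1.20 without replicate 1 (edgeR adjusted p = 0.0148 and 0.0042). TCA cycle and mitochondrial import genes that fell numbered 5 (Runx2ko replicate 3 left out) and 1, 0 and 1 (BM progenitor replicates 1, 2 and 3 left out), and 6 (only the compared libraries in the fit). Counts of mitochondrial genes themselves made up 2.02% to 2.15% of BM progenitor and 1.67% to 1.80% of Runx2ko libraries. The call of Hspd1 was lost without BM progenitor replicates 2 or 3 (highest adjusted p 0.0641).

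Of the proteasome genes, 36 of 36 listed were tested, 0 rose and 22 fell, with a median log2 fold change of -0.62. For the proteasome genes without replicate 1, 0 of 36 rose and 25 fell, with a median of -0.64. The groups did not overlap, with Runx2ko lower, in 33 of the 36 and in 34 without replicate 1, against 18.8% and 28.6% of all tested genes. Proteasome genes that fell numbered 2, 4 and 6 (BM progenitor replicates 1, 2 and 3 left out). Psmb2, a subunit of the catalytic core, was at 141, 143 and 147 CPM in BM progenitor and 59.8, 57.1 and 78.1 CPM in Runx2ko. The Psmb2 log2 fold change was -1.14 (SE 0.19, edgeR adjusted p = 0.00701) and -1.09 without replicate 1 (SE 0.21, adjusted p = 0.00338). Of the NRF2, glutathione and iron genes, 30 of 30 listed were tested, 0 rose and 11 fell, with a median log2 fold change of -0.61. For the NRF2, glutathione and iron genes without replicate 1, 0 of 30 rose and 14 fell, with a median of -0.53. NRF2, glutathione and iron genes that fell numbered 6, 6 and 6 (BM progenitor replicates 1, 2 and 3 left out). Of all genes tested 7.14% fell, and 12.6% without replicate 1. Hmox1, heme oxygenase, was at 125, 115 and 98.3 CPM in BM progenitor and 27.2, 25.5 and 12.2 CPM in Runx2ko. The Hmox1 log2 fold change was -2.38 (SE 0.29, edgeR adjusted p = 0.00236) and -2.56 without replicate 1 (SE 0.29, adjusted p = 0.000183). Prdx1, a peroxidase, was at 1145, 1005 and 953 CPM in BM progenitor and 319, 284 and 246 CPM in Runx2ko. The Prdx1 log2 fold change was -1.87 (SE 0.31, edgeR adjusted p = 0.00701) and -1.97 without replicate 1 (SE 0.33, adjusted p = 0.00176). Gclc, the rate-limiting subunit of glutathione synthesis, changed by -1.33 log2 units and -1.42 without replicate 1 (edgeR adjusted p = 0.00514 and 0.000988). In these 4 genes all Runx2ko libraries lay under every BM progenitor library.

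Glycolysis and hypoxia genes rose in part. Of the glycolysis and hypoxia genes, 35 of 38 listed were tested, 7 rose and 1 fell, with a median log2 fold change of 0.58. For the glycolysis and hypoxia genes without replicate 1, 11 of 35 rose and 1 fell, with a median of 0.40. The share of all genes tested that rose was 10.0%, and 15.9% without replicate 1. Glycolysis and hypoxia genes that rose numbered 4, 3 and 3 (BM progenitor replicates 1, 2 and 3 left out). Aldoc, an aldolase of glycolysis, was at 5.84, 5.13 and 8.5 CPM in BM progenitor and 92.8, 103 and 110.0 CPM in Runx2ko. The Aldoc log2 fold change was 3.96 (SE 0.27, edgeR adjusted p = 0.000287) and 4.02 without replicate 1 (SE 0.27, adjusted p = 6.8e-06). Its 3 Runx2ko libraries were close together and far above BM progenitor. Vegfa, the vascular growth factor induced by hypoxia, was at 24.3, 18.3 and 16.8 CPM in BM progenitor and 52.4, 96.5 and 117 CPM in Runx2ko. The Vegfa log2 fold change was 2.16 (SE 0.33, edgeR adjusted p = 0.00538) and 2.42 without replicate 1 (SE 0.25, adjusted p = 0.000111). Of the cholesterol synthesis genes, 26 of 26 listed were tested, 1 rose and 1 fell, with a median log2 fold change of -0.50. For the cholesterol synthesis genes without replicate 1, 2 of 26 rose and 5 fell, with a median of -0.43. Of the cholesterol efflux and fatty acid genes, 29 of 33 listed were tested, 3 rose and 1 fell, with a median log2 fold change of 0.13. For the cholesterol efflux and fatty acid genes without replicate 1, 8 of 29 rose and 4 fell, with a median of 0.14. Abca1, which exports cholesterol, was at 0.182, 0.270 and 1.91 CPM in BM progenitor and 8.41, 27 and 43.4 CPM in Runx2ko. The Abca1 log2 fold change was 5.0 (SE 0.86, edgeR adjusted p = 0.00811) and 5.41 without replicate 1 (SE 0.64, adjusted p = 0.000235). Mylip, which degrades the LDL receptor, rose by 2.76 log2 units and 3.04 without replicate 1 (edgeR adjusted p = 0.00924 and 0.00079); both are known targets of liver X receptors. Cholesterol efflux and fatty acid genes that rose numbered 1 (BM progenitor replicate 3 left out), and 5 (DESeq2). The sterol response element (TCACNCCAC) was in 1 of 22 promoters of the 18 cholesterol synthesis genes with an entry, or 4.55%, and in 1.24% of all promoters, so no stretch is shown. The call of Mylip was lost without BM progenitor replicate 3 (highest adjusted p 0.05).

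Of the lysosome and autophagy genes, 38 of 39 listed were tested, 13 rose and 1 fell, with a median log2 fold change of 0.54. For the lysosome and autophagy genes without replicate 1, 18 of 38 rose and 3 fell, with a median of 0.54. Over all genes tested, 10.0% rose with all 6 libraries and 15.9% without replicate 1. Lysosome and autophagy genes that rose numbered 8, 3 and 2 (BM progenitor replicates 1, 2 and 3 left out). Grn, progranulin, was at 759, 461 and 537 CPM in BM progenitor and 1377, 1830.1 and 1942 CPM in Runx2ko. The Grn log2 fold change was 1.55 (SE 0.29, edgeR adjusted p = 0.0112) and 1.68 without replicate 1 (SE 0.29, adjusted p = 0.00182). Ctsh, cathepsin H, went the other way: it was at 107, 93.9 and 86.9 CPM in BM progenitor and 2.26, 9.52 and 13.6 CPM in Runx2ko. The Ctsh log2 fold change was -3.48 (SE 0.48, edgeR adjusted p = 0.0037) and -3.07 without replicate 1 (SE 0.27, adjusted p = 3.64e-05). The call of Grn was lost without BM progenitor replicates 2 or 3 (highest adjusted p 0.0624).

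Of the myeloid transcription factors, 37 of 38 listed were tested, 3 rose and 4 fell, with a median log2 fold change of 0.07. For the myeloid transcription factors without replicate 1, 5 of 37 rose and 13 fell, with a median of -0.09. Myeloid transcription factors that rose numbered 1, 1 and 1 (BM progenitor replicates 1, 2 and 3 left out), and those that fell numbered 1, 1 and 1 (BM progenitor replicates 1, 2 and 3 left out), and 7 (DESeq2) and 7 (no filter). Egr2, an immediate-early factor of macrophages, was at 13.7, 34.5 and 37 CPM in BM progenitor and 2.91, 3.62 and 1.36 CPM in Runx2ko. The Egr2 log2 fold change was -3.40 (SE 0.58, edgeR adjusted p = 0.00768) and -3.44 without replicate 1 (SE 0.63, adjusted p = 0.00279). Of the AP-1 and immediate-early genes, 27 of 28 listed were tested, 2 rose and 5 fell, with a median log2 fold change of -0.24. For the AP-1 and immediate-early genes without replicate 1, 3 of 27 rose and 9 fell, with a median of -0.37. AP-1 and immediate-early genes that fell numbered 2, 2 and 1 (BM progenitor replicates 1, 2 and 3 left out), and 9 (DESeq2). Of the interferon-stimulated genes, 36 of 38 listed were tested, 2 rose and 2 fell, with a median log2 fold change of 0.13. For the interferon-stimulated genes without replicate 1, 5 of 38 rose and 3 fell, with a median of 0.34, or -0.67 with Runx2ko replicate 3 left out. Mx1, an antiviral GTPase, was 35.8 times as high in BM progenitor (12 to 176.0, from 3 counts in Runx2ko), and 26.6 times without replicate 1 (8.89 to 130.8, edgeR adjusted p = 0.0075 and 0.00297). Mx1 does not stand for the list: 19 of the 36 had a positive log2 fold change, and 23 of 38 without replicate 1. Of the NF-kB and inflammatory genes, 31 of 31 listed were tested, 0 rose and 3 fell, with a median log2 fold change of -0.40. For the NF-kB and inflammatory genes without replicate 1, 3 of 31 rose and 5 fell, with a median of -0.12. NF-kB and inflammatory genes that fell numbered 1 and 0 (Runx2ko replicates 2 and 3 left out) and 0, 0 and 0 (BM progenitor replicates 1, 2 and 3 left out). Of the chromatin and Polycomb genes, 34 of 36 listed were tested, 4 rose and 2 fell, with a median log2 fold change of 0.05. For the chromatin and Polycomb genes without replicate 1, 7 of 34 rose and 7 fell, with a median of 0.05. Chromatin and Polycomb genes that rose numbered 2, 2 and 2 (BM progenitor replicates 1, 2 and 3 left out). Beside every list of this paragraph, 10.0% of all genes tested rose and 7.14% fell, and 15.9% and 12.6% without replicate 1. Kdm6b, a histone demethylase, was at 16.8, 18.6 and 18.9 CPM in BM progenitor and 51.1, 60.5 and 52.3 CPM in Runx2ko. The Kdm6b log2 fold change was 1.59 (SE 0.25, edgeR adjusted p = 0.00591) and 1.64 without replicate 1 (SE 0.26, adjusted p = 0.00123).

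Of the cytokine receptor and STAT5 target genes, 25 of 29 listed were tested, 4 rose and 2 fell, with a median log2 fold change of 0.42. For the cytokine receptor and STAT5 target genes without replicate 1, 7 of 26 rose and 7 fell, with a median of -0.05. Cytokine receptor and STAT5 target genes that rose numbered 0, 0 and 0 (BM progenitor replicates 1, 2 and 3 left out). Il6st, the gp130 chain through which the IL-6 of the medium signals, was at 44.9, 47.7 and 50.3 CPM in BM progenitor and 1.94, 2.85 and 3.25 CPM in Runx2ko. The Il6st log2 fold change was -4.12 (SE 0.31, edgeR adjusted p = 0.000445) and -3.96 without replicate 1 (SE 0.33, adjusted p = 2.43e-05). Of the integrin, adhesion and chemokine genes, 30 of 30 listed were tested, 5 rose and 2 fell, with a median log2 fold change of 0.40. For the integrin, adhesion and chemokine genes without replicate 1, 8 of 30 rose and 5 fell, with a median of 0.14. Integrin, adhesion and chemokine genes that rose numbered 2, 1 and 1 (BM progenitor replicates 1, 2 and 3 left out). Beside both lists of this paragraph, 10.0% of all genes tested rose and 7.14% fell, and 15.9% and 12.6% without replicate 1. Itgal, the integrin chain of LFA-1, was at 97.3, 81.7 and 102 CPM in BM progenitor and 168, 409 and 407 CPM in Runx2ko. The Itgal log2 fold change was 1.81 (SE 0.32, edgeR adjusted p = 0.00903) and 2.12 without replicate 1 (SE 0.19, adjusted p = 3.8e-05). Cxcr4, the receptor that holds cells in the marrow, was at 116, 112 and 96.8 CPM in BM progenitor and 25.6, 202 and 221 CPM in Runx2ko, and passed only without replicate 1, with 0.47 (SE 0.57, edgeR adjusted p = 0.604) and 0.96 without replicate 1 (SE 0.15, adjusted p = 0.00129). The call of Itgal was lost without BM progenitor replicate 2 (highest adjusted p 0.052).

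**Figure D4:**
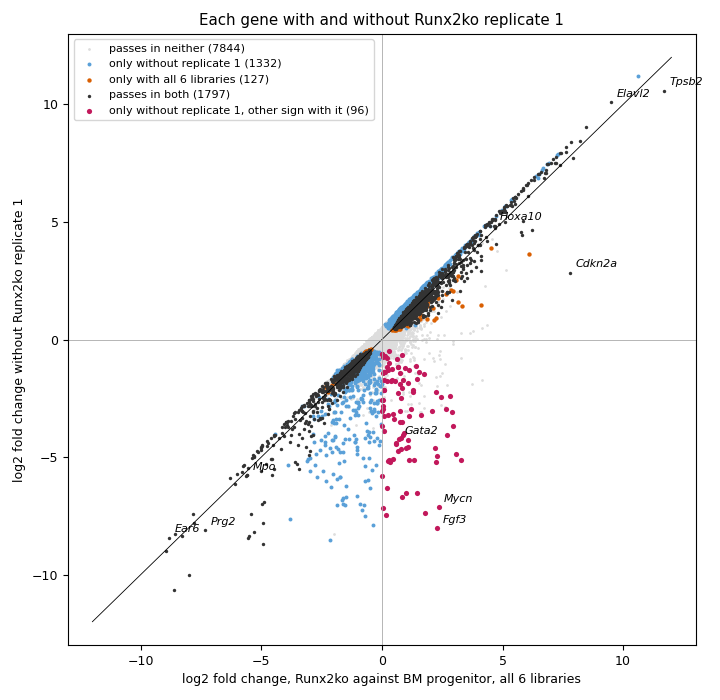
Each point is a gene tested in both sets: log2 fold change of Runx2ko against BM progenitor with all 6 libraries (x) and without Runx2ko replicate 1 (y), with the number of genes of each kind in brackets and the diagonal as a line. The 1797 genes that passed in both keep their sign, whereas 96 that passed only without replicate 1, among them Gata2, Mycn and Fgf3, are negative on y and positive on x.

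Without replicate 1, 1514 further genes passed and 127 no longer did. Of the 1514, 1332 had the same sign with replicate 1 but did not pass. A further 96 had the opposite sign with it, all of them lower without it. The rest were not tested with replicate 1, as the filter for enough counts depends on the libraries. Among genes at 10 CPM or more in the higher group, 121 passed without replicate 1 and reversed or shrank to under 0.25 of that size with it, 120 lower and 1 higher without it. Fold changes compare group means, in which 1 very high library can cancel a fall, whereas 1 library near 0 takes away only part of a rise. The uneven counts are therefore partly built into the measure. Mycn, a Myc family gene of early progenitors, was at 1.64, 6.47 and 3.82 CPM in BM progenitor and 61.1, 0 and 0 CPM in Runx2ko, and Fgf3, a fibroblast growth factor, at 4.74, 9.44 and 7.86 CPM in BM progenitor and 109, 0 and 0 CPM in Runx2ko. Both had counts in replicate 1 and none in replicates 2 and 3, so they were at least 11.9-fold and at least 21.9-fold lower without replicate 1 (edgeR adjusted p = 0.00925 and 0.00298) and did not pass with it (adjusted p = 0.359 and 0.426). The BM progenitor means of Mycn and Fgf3 were 3.98 and 7.35 CPM, so both reached 10 CPM only through replicate 1. Akr1c18, a steroid dehydrogenase, was at 35.4, 32.9 and 45.2 CPM in BM progenitor and 65.7, 0.190 and 0.271 CPM in Runx2ko, and BM progenitor was 170.3 times as high as replicates 2 and 3 (46.9 to 1410). H1fx, a linker histone, was at 13.1, 13.5 and 26.3 CPM in BM progenitor and 29.1, 0.190 and 0 CPM in Runx2ko, with a ratio of 158.3 (28.2 to 6279). Whether the sex-linked transcripts, the mast cell genes or depth account for the place of replicate 1 was not tested; its total of 3118594 counts was the smallest of the 6 libraries.

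Against Runx2wt, the other transformed group, the same fit passed 0 of 11196 genes with all libraries (0%) and 5 of 11636 (0.0430%) without replicate 1. At an unadjusted p under 0.05, which some genes reach without any difference, there were 886 of the 11196 with all libraries. DESeq2 called 48 of 13262. The smallest edgeR adjusted p was 0.442. The 5 were Itgal and Gm1673, higher, and Cd24a, Hpgd and Cgnl1, lower in Runx2ko, named after their values were seen. Itgal was at 82.8, 101 and 68.4 CPM in Runx2wt, and the log2 difference was 1.96, edgeR adjusted p = 0.442, and 2.28, adjusted p = 0.0009, without replicate 1. Of the mitosis genes none passed, and their summed level was 5549.9, 2910.3 and 3622 CPM in Runx2wt against 2602, 3591 and 1865 CPM in Runx2ko, which overlap. The median log2 difference over the list was -0.63 for Runx2ko minus Runx2wt and -0.65 without replicate 1, beside 0.01 and -0.01 over all tested genes. Of the genes named for the comparison with BM progenitor, only Itgal, without replicate 1, also passed against Runx2wt.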

How the data were processed

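The analysis used the raw counts by Ensembl identifier that the authors deposited, and not their normalized values. Per the submitters' processing notes FastQC, STAR, DESeq2 and the build GRCm38 were used; for versions, the counting program and strand handling, the sources used here give nothing. Symbols from GENCODE M21 matched 21042 of 21159 identifiers, and 1188 genes had no count.

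All 9 libraries were fitted together with edgeR 4.0.16 in R 4.3.3 (quasi-likelihood F-test, TMM, filterByExpr; Benjamini-Hochberg adjusted p under 0.05), and again without Runx2ko replicate 1. CPM used TMM-scaled library sizes, and standard errors came from the F statistic. Replicates differed by more than sampling noise (chi-square per gene 4.46 or more), so each counted once. Alternatives were DESeq2 1.42.0 on the same counts, RLE size factors, no filter, only the compared libraries, a replicate block and leaving out each library. Same-numbered libraries of Runx2ko and BM progenitor deviated from their group means with correlations of -0.071, 0.0076 and -0.010, so the numbers were not taken as pairs.

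Members and lists were chosen with earlier results of these data known, and symbols within lists were not adjusted separately. The 190 genes that could be named were a panel of 33, the 12 largest rises and falls that passed with and without replicate 1, up to 4 per list and those whose change depended on replicate 1; the text prints some of these, a few are not reported here, and Cdc20, Aurka, Slc7a11 and Slc1a4 were added. Promoter sequences are from RefSeq on GRCm38.p6. A floor for a group without counts was 3 counts over the group; ratios on few counts have exact intervals for counting error only.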

Additional observations from a re-analysis of the deposited data

How the results depend on the processing

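For Runx2ko against BM progenitor, the number of genes that passed was 1924 with edgeR and stayed within 1.5 times of that with RLE size factors, DESeq2 (2529) and no filter (1689). It was 1262 with only the compared libraries in the fit, 3702 with only those and without Runx2ko replicate 1, and 1120 with the replicate number as a block; with each library left out in turn it ran from 405 to 3311. The replicate block was run although the numbers did not pair the samples. For Runx2ko against Runx2wt, 0 genes passed with edgeR, RLE size factors, no filter, only the compared libraries and the block, 48 with DESeq2 and 2 with only the compared libraries and without Runx2ko replicate 1; with each library left out in turn the number ran from 0 to 5.

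Among the 97 printed genes checked in this way, 7 changed direction in at least 1 setting. With only the compared libraries and without it, the log2 fold change was -0.0417 for Runx1, 0.0959 for Csf1r, 0.137 for Spi1, -5.20 for Gata1, -4.23 for Gata2, -7.16 for Mycn and -8.06 for Fgf3. With the replicate block it was -1.98 for Gata1, -1.97 for Gata2, -0.93 for Mycn and -1.81 for Fgf3. Over the fits that leave out each library in turn, the log2 fold change ran from -0.0529 to 0.30 for Runx1, -1.31 to 0.0847 for Csf1r, -0.49 to 0.13 for Spi1, -5.22 to 0.93 for Gata1, -4.24 to 1.26 for Gata2, -7.12 to 2.94 for Mycn and -8.02 to 2.88 for Fgf3. Of the 40 list medians, 9 changed sign without Runx2ko replicate 1, with all groups or with only the compared libraries in the fit, 3 and 2 without Runx2ko replicates 2 and 3, and 4, 3 and 1 without BM progenitor replicates 1, 2 and 3. With the block 6 changed sign, with DESeq2 1, without a filter 1, and with RLE size factors or only the compared libraries none. The median of the stromal and endothelial genes, 0.67, went to -0.60 without Runx2ko replicate 2, -0.30 without BM progenitor replicate 1, 1.76 with DESeq2 and 2.12 without a filter.

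With the replicate block, 9 of the replication genes fell in place of 24, 11 of the proteasome genes in place of 22, and 12 of the mitochondrial ribosomal protein genes in place of 22. For complex I it was 5 in place of 12, for complexes II to V 10 in place of 17, and for the TCA cycle and mitochondrial import genes 4 in place of 10. The block left 11 cytosolic ribosomal protein genes that rose in place of 26, and 8 ATF4 targets in place of 15; in lists with 3 to 5 calls, 8 further counts moved by over 1.5 times. These counts under settings other than a left-out library were chosen after seeing the data.

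Depth limits the low genes: a group without a count in 3 libraries allowed up to 3 counts, so genes such as Rps4l in Runx2ko or Tpsb2 in BM progenitor are at or under that floor and are not shown to be absent. With 3 libraries a group and replicate 1 apart from the rest, differences that did not pass are not shown to be equal.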
